A study of Homo sapiens with 3 samples.

Results

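The keratins described here are 8 genes of epithelial cells, *KRT7*, *KRT8*, *KRT18*, *KRT19*, *KRT20*, *KRT23*, *KRT80* and *KRT81*, out of 21614 genes named on the array. They were chosen by name, and their probes were found through the transcript accession that the array files give for each probe. HCT116, an established human colon cancer cell line, received control siRNA, siRNA #7 or siRNA #8 and was harvested after 48 h. siRNA #7 and siRNA #8 are both directed at *HOXA5* short RNA, a non-coding transcript of the *HOXA6*-*HOXA5* locus. The study's methods give a final concentration of 10 nM and a lipid transfection reagent for every siRNA, so the control cells were transfected too. Total RNA (400 ng per condition) was labeled with Cy3 and hybridized, each condition to its own array. No condition was repeated, so ratios between arrays are given without a test.

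Keratins form the intermediate filaments of epithelial cells. A filament is built from pairs of an acidic type I and a basic type II keratin, so that neither partner polymerizes alone. *KRT8* (type II) with *KRT18* (type I) is the basic pair of simple epithelia such as the intestinal lining. *KRT19* is a further type I keratin of simple epithelia, *KRT7* a type II keratin of ducts, and *KRT20* a type I keratin of differentiated intestinal cells. *KRT23* is a type I keratin and *KRT80* a type II keratin, both of epithelial cells, and *KRT81* is a type II keratin first known from hair. In pathology, *KRT7* and *KRT20* are read together to assign carcinomas to a tissue of origin.

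The siRNA sequences are shown because the molecules are closely related and their arrays are also compared with each other below. Both are 21 bases long and share 17 bases, which are in capitals. The shared stretch begins at base 5 of siRNA #7 and at base 1 of siRNA #8.
siRNA #7: gagaAACUGAAAGACAACAUA
siRNA #8: AACUGAAAGACAACAUAggcg

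Levels were computed on the log2 scale from processed intensities, from which the scanner software had already subtracted the background, and each array was scaled to the 75th percentile of its gene probes. For control siRNA that percentile was 52.8, for siRNA #7 42.1 and for siRNA #8 42.8. The 8 genes had 12 probes, each on 1 spot, and 10 of them were well above background on every array, so that 7 of the 8 genes had a usable probe. No spot was saturated and none of these spots carried an outlier flag. Where a gene had several usable probes, the brightest was taken as its value. The error given with a ratio is the spot-to-spot SD, taken from probes printed 10 times on the same array. It covers spotting and scanning and leaves out the difference between cultures. A ratio is called beyond spot error where it is over 2 of these SDs, a mark that 29.8% of all 12031 measured genes passed with siRNA #7 and 31.4% with siRNA #8.

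**Figure D1:**
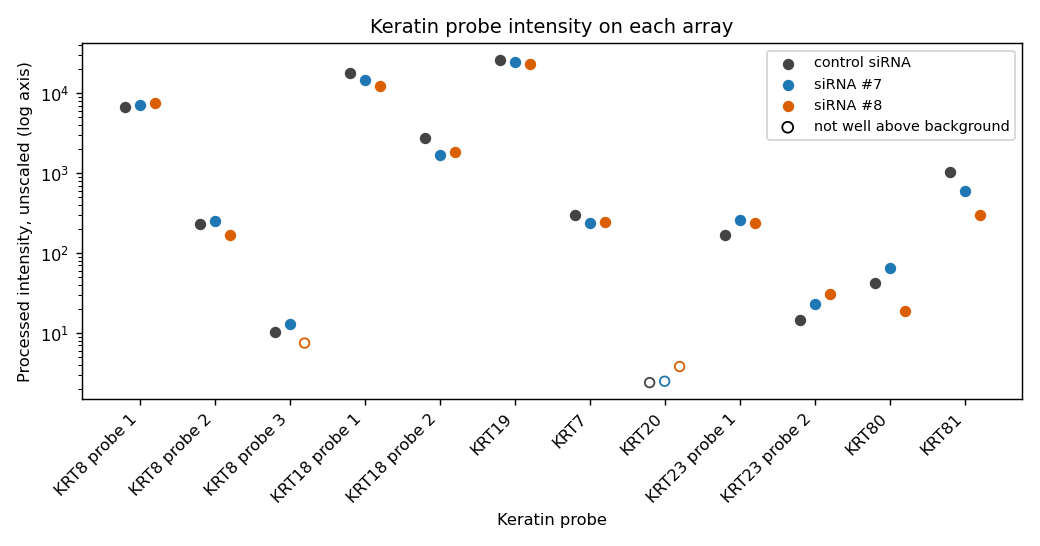
Processed intensity of the 12 keratin probes on each array (log axis, not scaled between arrays); open circles were not well above background. The *KRT19* probe and the brighter *KRT18* probe are the brightest on every array, and the *KRT20* probe, at 2.39 to 3.80, is the dimmest. Heights of different probes are not comparable as amounts of RNA.

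Of the 7 measured keratins, *KRT23* was higher with both siRNAs on both of its probes, *KRT81* was lower with siRNA #8, and *KRT80* was higher with siRNA #7 and lower with siRNA #8. *KRT81* was also lower with siRNA #7, but not once the neighbouring spots on the array were taken into account. On their brightest probes *KRT19*, *KRT7* and *KRT18* stayed within spot error of the control with both siRNAs. *KRT8* was higher by its processed intensity and nearly level by its scaled median pixel signal. In counts, 4 of the 7 were beyond spot error with siRNA #7 and 4 with siRNA #8. With the deviation of neighbouring spots removed there were 3 with siRNA #7 (*KRT19*, *KRT23* and *KRT80*) and 3 with siRNA #8 (*KRT23*, *KRT80* and *KRT81*). The share of all genes on that reading is not given, so these counts have no background beside them. Past 2-fold there were 0 with siRNA #7 and 1, *KRT81*, with siRNA #8, beside 3.81% and 5% of all measured genes. At 1.5-fold there were 2 and 3, beside 14.5% and 18.1%. Over the 7 keratins the median log2 ratio came to 0.23 for siRNA #7 and 0.0047 for siRNA #8, against 0.013 and 0.0071 over all measured genes. The median for siRNA #7 was -0.018 with quantile normalization, -0.081 with spike-in scaling and 0.014 with normexp, so its place above 0 was not settled.

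**Figure D2:**
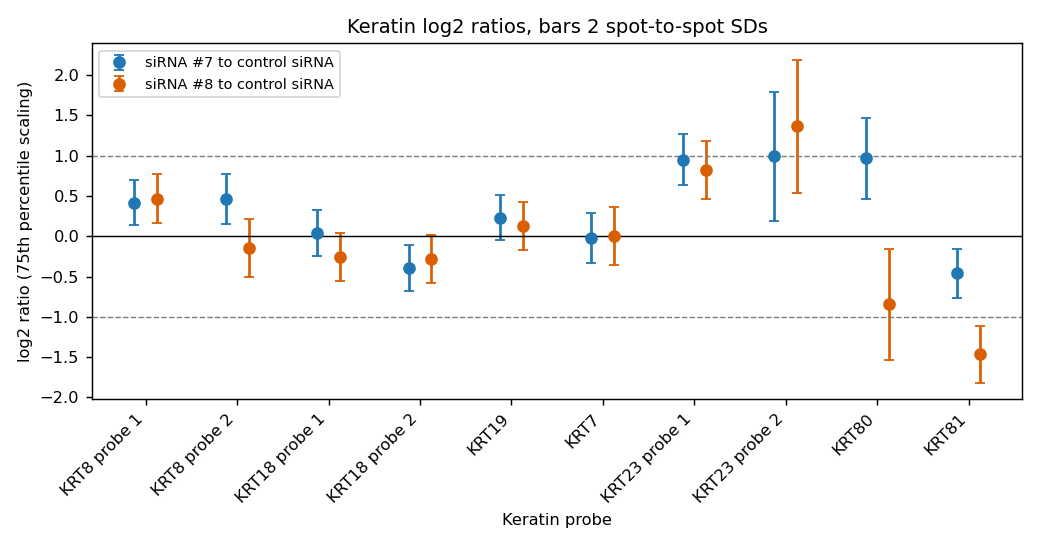
Log2 ratio of each usable keratin probe to control siRNA (points), with bars of 2 spot-to-spot SDs; dashed lines mark 2-fold. Both *KRT23* probes lie above 0 with both siRNAs, *KRT80* lies at 0.97 and -0.85, and *KRT81* reaches -1.46 with siRNA #8.

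*KRT8* was read from probe A_23_P14072, which read 6742 in control cells, 7197 after siRNA #7 and 7561 after siRNA #8. After scaling, the log2 ratio to control was 0.42 (spot SD 0.14) with siRNA #7 and 0.47 (spot SD 0.15) with siRNA #8, both beyond spot error. The median pixel signal of the same spot minus its local background, not scaled between arrays, was 6704, 5744 and 5507. Scaled to the 75th percentile of the same signal, an alternative chosen after seeing the data, it gave log2 ratios of 0.0034 and -0.057, nearly level. The processed intensity was 1.01 times that signal on the control array, 1.25 times with siRNA #7 and 1.37 times with siRNA #8. The spot lies in row 383 of 384, at the edge of the array, and its neighbours within 3 rows and columns had median log2 ratios of 0.21 and 0.26. With the neighbours' deviation removed the log2 ratios of *KRT8* were 0.21 and 0.21, no longer beyond spot error. With normexp, which changes the signal, the background model and the offset together, they were -0.09 and -0.15. A higher level of *KRT8* was therefore not present under every processing.

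The other *KRT8* probes did not settle the direction. A second probe, A_33_P3372368, designed on a non-coding *KRT8* transcript, read 229, 251 and 167, a log2 ratio of 0.46 (spot SD 0.16) with siRNA #7 and -0.15 (spot SD 0.18) with siRNA #8. Its processed intensity stayed between 0.951 and 0.997 times its pixel signal on all 3 arrays. The remaining probe, A_24_P67395, was dim at 10.4, 12.9 and 7.46 and was not well above background with siRNA #8. It was at least 1.11-fold higher with control siRNA and at least 1.72-fold higher with siRNA #7 than with siRNA #8. The dimmer probes are thus both lowest with siRNA #8, while the first is highest there by processed intensity.

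*KRT18*, the type I partner of *KRT8*, read 17992 in control cells, 14782 with siRNA #7 and 12178 with siRNA #8 on probe A_32_P151544. The log2 ratio was 0.04 (spot SD 0.14) with siRNA #7 and -0.26 (spot SD 0.15) with siRNA #8, neither beyond spot error. Directly against siRNA #7, siRNA #8 gave -0.30 (spot SD 0.15), just past it. A dimmer probe of the gene, A_24_P42136, read 2736, 1664 and 1827, a log2 ratio of -0.39 (spot SD 0.14) with siRNA #7, beyond spot error, and -0.28 (spot SD 0.15) with siRNA #8, within it. Both probes were below the control with siRNA #8, and they disagreed with siRNA #7. A probe named for the pseudogene *KRT18P55* read 2560, 2560 and 2015, with log2 ratios of 0.33 and -0.04. Whether these probes bind one another's transcripts was not tested, since probe sequences were not used here.

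A filament needs equal amounts of each type, so the change of *KRT8* was set against that of *KRT18* within each array, where scaling between arrays drops out. This and the other pairs below were picked after their values were seen. By processed intensity the log2 ratio of *KRT8* exceeded that of *KRT18* by 0.38 (spot SD 0.20) with siRNA #7 and by 0.73 (spot SD 0.21) with siRNA #8. With neighbours removed the same differences were 0.12 and 0.38, and by median pixel signal -0.11 and 0.20. Of these differences, only that with siRNA #8 by processed intensity was over 2 of the spot SDs given. A shift of the pair with siRNA #7 was therefore not present on every reading, and with siRNA #8 it was positive on all of these but varied in size. The brightest probe of each gene was used here, and the second *KRT8* probe had a log2 ratio of -0.15 with siRNA #8.

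*KRT19* was the brightest probe of the set in intensity, at 26442, 24755 and 23454 on A_23_P66798. The log2 ratio was 0.23 (spot SD 0.14) with siRNA #7 and 0.13 (spot SD 0.15) with siRNA #8, within spot error. The sign turned with quantile normalization (-0.02 and -0.09) and with spike-in scaling (-0.08 and -0.08), and for siRNA #8 also with normexp (-0.08). With neighbours removed the ratio with siRNA #7 was 0.30, just beyond spot error. A probe named for the pseudogene *KRT19P2* read 921, 895 and 797, with log2 ratios of 0.28 and 0.09.

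*KRT7* read 302 in control cells, 238 with siRNA #7 and 246 with siRNA #8 on A_33_P3350748. Scaled, the arrays were nearly level, at log2 ratios of -0.02 (spot SD 0.16) and 0.0047 (spot SD 0.18). *KRT20* did not clear background in any condition: its probe, A_23_P66854, read 2.39, 2.48 and 3.80, below the dimmest signals called well above background (6.67, 7.36 and 7.62). No ratio is given for it. These cells thus gave a *KRT7* signal and no *KRT20* signal above background in all 3 conditions.

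*KRT23* read 166 in control cells, 256 with siRNA #7 and 239 with siRNA #8 on A_23_P78248. The log2 ratio was 0.95 (spot SD 0.16) with siRNA #7 and 0.82 (spot SD 0.18) with siRNA #8, which is 1.93-fold and 1.77-fold. Of the 12031 measured genes, 279 (2.32%) were at least as high with siRNA #7 and 426 (3.54%) with siRNA #8. A second and dimmer probe, A_33_P3299761, read 14.5, 23.0 and 30.3, with log2 ratios of 0.99 (spot SD 0.40) and 1.37 (spot SD 0.41). With scaled median pixel signals the dimmer probe gave 0.49 and 0.80, and with normexp 0.23 and 0.37, all within 2 of those SDs. By processed intensity *KRT23* was thus beyond spot error and higher with both siRNAs on either probe. *KRT8*, by processed intensity, was the other keratin of the set to meet that rule on its main probe, beside 5.71% of all measured genes, and it no longer met it with neighbours removed. The median pixel signals of the brighter *KRT23* probe (186, 278 and 259) kept the same order as its processed intensities. Neighbouring spots had median log2 ratios of -0.02 and 0.08. Against *KRT18* within each array, *KRT23* was higher by 0.91 (spot SD 0.21) with siRNA #7 and 1.08 (spot SD 0.23) with siRNA #8, and by 0.70 and 0.96 on the median pixel signals.

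*KRT80* read 42.2 in control cells, 65.9 with siRNA #7 and 19.0 with siRNA #8 on A_24_P331704. The log2 ratio was 0.97 (spot SD 0.25) with siRNA #7 and -0.85 (spot SD 0.34) with siRNA #8, so the gene was beyond spot error in opposite directions with siRNAs that share most of their sequence. Of all measured genes, 2.41% did the same. Directly against siRNA #7, siRNA #8 gave a log2 ratio of -1.81 (spot SD 0.32), 3.52-fold lower, and 43 of the 12031 genes (0.357%) were at least as low. The median pixel signals kept the order at 51, 66.5 and 31.5, and the processed intensity was 0.83, 0.99 and 0.60 times these. With normexp correction, which adds an offset of 50, the log2 ratios were 0.34 and -0.20, and with scaled median pixel signals 0.61 and -0.47. Of these, only 0.61 was over 2 of the spot SDs given, so the opposite directions beyond spot error were not kept on either reading. *KRT80* has 1 probe, so no second reading of it was at hand.

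*KRT81* read 1028 in control cells, 597 with siRNA #7 and 302 with siRNA #8 on A_33_P3273534. The log2 ratio was -0.46 (spot SD 0.15) with siRNA #7 and -1.46 (spot SD 0.18) with siRNA #8, the latter 2.76-fold lower. Of all measured genes, 82 (0.682%) were at least as low with siRNA #8. The spot lies in column 18 of 164, among neighbours whose median log2 ratios were -0.44 and -0.49. With the neighbours' deviation removed the log2 ratio was -0.02 with siRNA #7 and -0.97 with siRNA #8. The neighbours differed little between the siRNA arrays (-0.05), and *KRT81* had a log2 ratio of siRNA #8 to siRNA #7 of -1.004 (spot SD 0.16), or -0.95 with neighbours removed. The lower level with siRNA #8 was thus present under either reading, and that with siRNA #7 was not.

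*KRT83* is a hair keratin closely related to *KRT81*, and its usable probe read 288, 233 and 182, with log2 ratios of 0.02 (spot SD 0.16) and -0.36 (spot SD 0.18). The log2 ratio of *KRT81* minus that of *KRT83* was -0.47 (spot SD 0.22) with siRNA #7 and -1.11 (spot SD 0.25) with siRNA #8. With neighbours removed it was 0.018 and -0.82, so a difference was present with siRNA #8 and not with siRNA #7. A second *KRT83* probe stayed near background throughout.

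Between siRNA #8 and siRNA #7 directly, 3 of the 7 keratins (*KRT18*, *KRT80* and *KRT81*) were beyond spot error, each lower with siRNA #8, beside 37.2% of all measured genes. *KRT80* and *KRT81* were past 2-fold, and these 2 were also the count at 1.5-fold, beside 5.69% and 20.5%. The *KRT81* ratio lay at the 2-fold line, and of 9 alternatives 3 kept it past 2-fold (range -1.023 to -0.898). For *KRT80* 8 of 9 did, and normexp gave -0.54. With neighbours removed 2 keratins, *KRT80* and *KRT81*, stayed beyond spot error, and the share of all genes on that reading is not given. *KRT23*, *KRT7*, *KRT8* and *KRT19* lay within spot error between the siRNAs. Ordered by level, *KRT81* ran control siRNA, siRNA #7, siRNA #8 from high to low. *KRT80* ran siRNA #7, control siRNA, siRNA #8, with every neighbouring pair beyond spot error in both genes. With neighbours removed, control siRNA and siRNA #7 were not apart for *KRT81*.

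**Figure D3:**
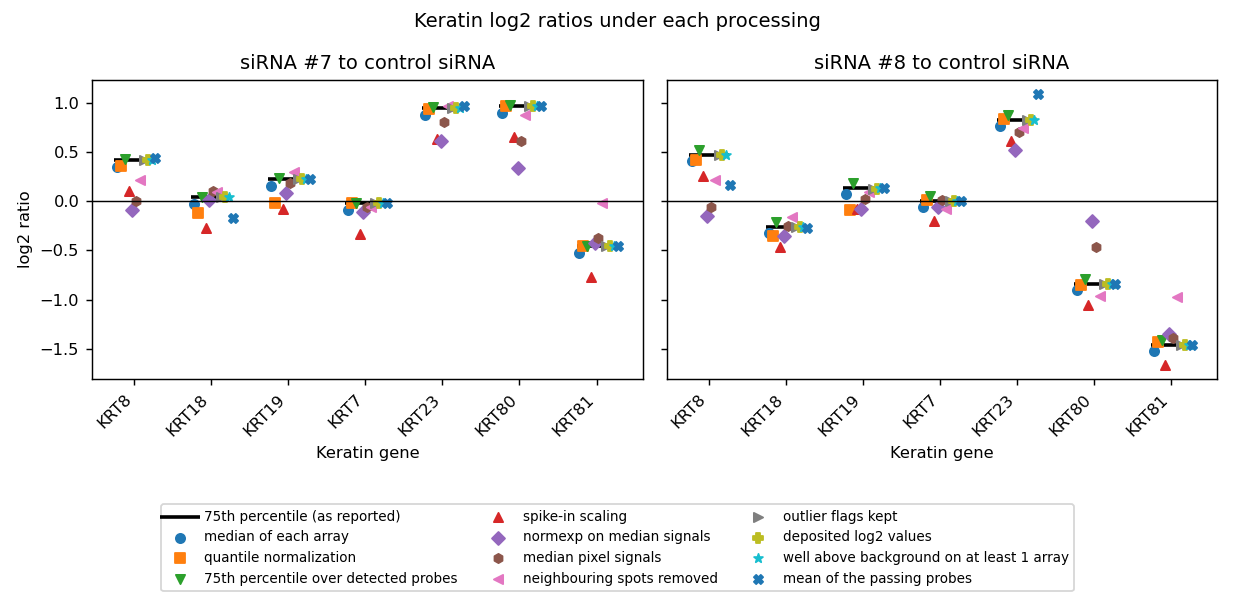
Log2 ratio of the 7 measured keratins to control siRNA under the processing reported (black bar) and 11 alternatives (symbols). *KRT23* stays above 0 in both panels under all of them, *KRT80* keeps its opposite signs, *KRT81* with siRNA #7 reaches -0.02 with neighbouring spots removed, and *KRT8* crosses 0 with normexp in both panels and with median pixel signals for siRNA #8.

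Some of these genes lie beside each other in the genome. In the RefSeq gene order *KRT8* and *KRT18* have 1 gene between their starts. *KRT80* and *KRT7* are separated by 3 genes, and *KRT7* and *KRT81* by 5. *KRT20* and *KRT23* are direct neighbours. Values differed between such neighbours: *KRT80*, *KRT7* and *KRT81* had log2 ratios of -0.85, 0.0047 and -1.46 with siRNA #8, and *KRT20* stayed below background beside the measured *KRT23*.

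The genes whose pair of ratios lay nearest to that of *KRT8*, over 3 arrays, were *DNAJC12*, *PES1* and *ADAM33*, at distances of 0.012, 0.014 and 0.014 on the log2 scale. Those nearest to *KRT18* were *PHTF2*, *SMC6* and *SMCHD1*, at distances of 0.0064, 0.0092 and 0.016. The places of *KRT8* rest on its processed ratios, which other processing moved to near or below 0. With so few arrays such likeness is common: 135 of the 12031 genes lay within 0.1 of *KRT8* and 284 within 0.1 of *KRT18*.

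Among all functional keratins, 54 genes, 52 had a probe and 15 were measured, 7 of type I and 8 of type II. Their median log2 ratio was 0.016 with siRNA #7 and 0.0047 with siRNA #8, near the 0.013 and 0.0071 of all genes. With siRNA #7, 4 of the 15 were beyond spot error above the control and 3 below, beside 1804 above and 1778 below of all 12031 measured genes (29.8% in all). With siRNA #8, 2 were above and 3 below, beside 1748 and 2031 (31.4% in all). Keratins of stratified epithelium such as *KRT5*, *KRT14* and *KRT1* did not clear background in any condition, and *KRT13* did so in control cells alone (6.90). *KRT15*, a basal keratin, was measured at 277, 194 and 163, with log2 ratios of -0.19 (spot SD 0.16) and -0.46 (spot SD 0.18), the latter beyond spot error but not with neighbours removed (-0.31). *KRT10* was bright and level (3345, 2633 and 2706, log2 ratios of -0.02 and -0.0025). *KRT3*, a keratin of the cornea, was the other keratin past 2-fold, at 16.5, 45.7 and 21.9. Its log2 ratio was 1.80 (spot SD 0.34) with siRNA #7 and 0.71 (spot SD 0.41) with siRNA #8. Its spot lies in column 12, among neighbours with medians of 0.82 and 0.99, and with these removed the ratios were 0.98 and -0.28.

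**Figure D4:**
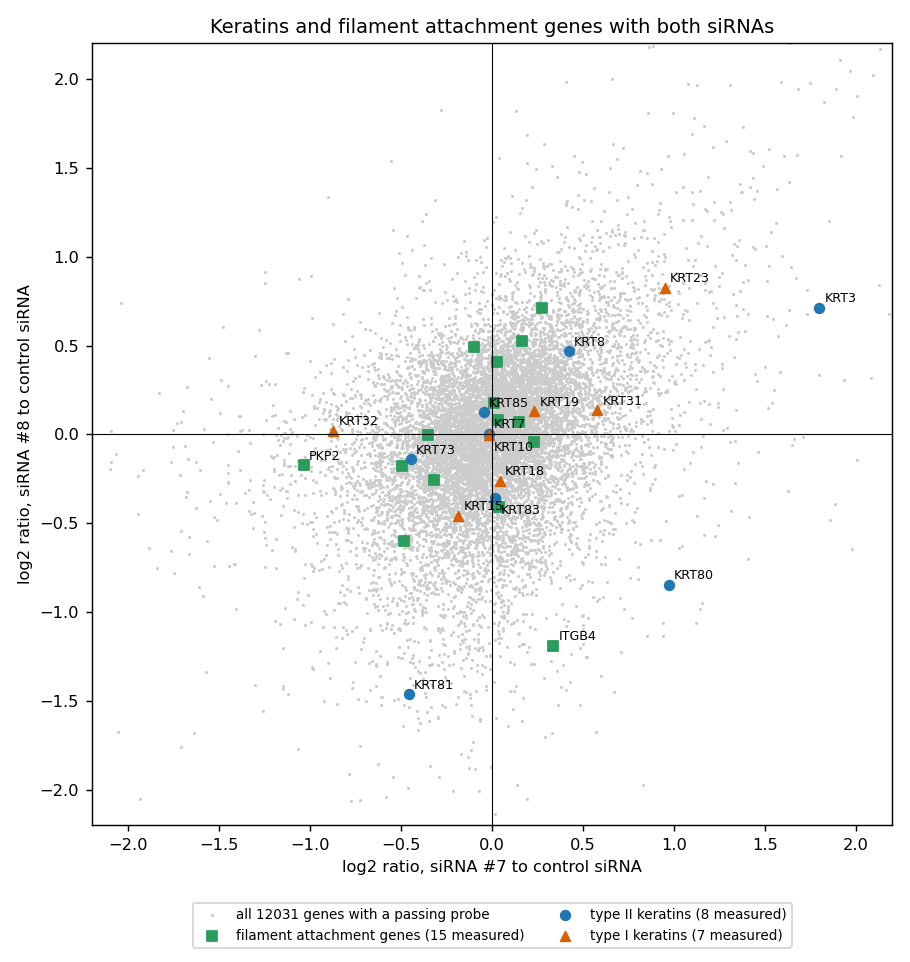
Log2 ratio with siRNA #7 (x axis) against siRNA #8 (y axis) for the 15 measured keratins, 15 filament attachment genes and all 12031 measured genes, of which 46 lie outside the axes. The ratios share the control array. *KRT80* sits at lower right, *KRT81* at the bottom and *KRT23* at upper right, and most other keratins lie within the cloud.

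Genes that anchor keratin filaments to desmosomes and hemidesmosomes were measured for 15 of 19, and their medians were 0.025 for siRNA #7 and -0.0038 for siRNA #8. With siRNA #7, 1 was above the control beyond spot error and 3 were below. With siRNA #8, 4 were above and 2 below. Over all 12031 measured genes, 1804 were above and 1778 below with siRNA #7 (29.8% in all), and 1748 and 2031 with siRNA #8 (31.4% in all). *PKP2*, a plakophilin of desmosomes, read 149, 58.0 and 107, a log2 ratio of -1.04 (spot SD 0.19) with siRNA #7 and -0.17 (spot SD 0.18) with siRNA #8. *ITGB4*, the integrin subunit that ties hemidesmosomes to keratin through plectin, read 2058, 2071 and 732. Its log2 ratio was 0.33 (spot SD 0.14) with siRNA #7 and -1.19 (spot SD 0.16) with siRNA #8, and with neighbours removed 0.40 and -0.83. The plectin gene *PLEC* (0.03 and 0.08) and the desmoplakin gene *DSP* (0.01 and 0.18) stayed within spot error. The 4 above the control beyond spot error with siRNA #8 were *PPL* (0.71), *EPPK1* (0.53), *EVPL* (0.49) and *JUP* (0.41). *ITGA6* was below it beyond spot error with both siRNAs (-0.49 and -0.60), and *DST* with siRNA #7 (-0.49).

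Of 15 other intermediate filament genes 7 were measured, with medians of 0.085 and -0.18. *NES*, which encodes nestin, read 180, 54.9 and 157, a log2 ratio of -1.39 (spot SD 0.19) with siRNA #7 and 0.10 (spot SD 0.18) with siRNA #8. Its second probe gave -0.53 and 0.19, the former within spot error. Of 15 genes of colon epithelial differentiation 6 were measured (medians -0.024 and 0.10), and none was past 2-fold. *CDX2*, an intestinal transcription factor, was the member beyond spot error, and was so with both siRNAs. It read 270, 276 and 308, log2 ratios of 0.36 (spot SD 0.16) and 0.49 (spot SD 0.18). Of 10 genes of the cornified envelope 3 were measured (medians 0.29 and 0.40). All 3 were above the control with both siRNAs, beside 6184 of 12031 measured genes with siRNA #7 and 6110 with siRNA #8. *CNFN* was the only member beyond spot error (329, 405 and 383, log2 ratios of 0.62 and 0.52). Of all measured genes, 5.71% were higher beyond spot error with both siRNAs, like *CDX2* and *CNFN*.

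Markers of cell identity and a *HOXA5* probe were read on the same arrays. Of 6 epithelial markers *CLDN4*, *EPCAM* and *CDH1* were measured on all arrays, while *CDH17* and *VIL1* cleared background on none and *GPA33* with siRNA #7 alone (7.78). *CDH1* was higher beyond spot error with both siRNAs, at log2 ratios of 0.42 (spot SD 0.050) and 0.63 (spot SD 0.054), as were 5.71% of all measured genes. *CLDN4* and *EPCAM* stayed within spot error. Summed over a list, intensity in units of the 75th percentile was 288, 313 and 308 for the epithelial markers and 1.49, 1.07 and 1.21 for 7 fibroblast markers. Such sums join different probes, so lists are not comparable as amounts of RNA. Most of the epithelial sum came from *CLDN4* (10244 in control cells) and *EPCAM* (4653). The sum was 0.490, 0.424 and 0.701 for the 4 of 5 leukocyte markers that had a named probe, and 0.307, 0.499 and 0.522 for 4 endothelial markers. The fibroblast gene *COL1A1* was the sole non-epithelial marker well above background on all arrays (48.1, 28.2 and 35.9). *VIM*, the vimentin gene, which is both a fibroblast marker and an intermediate filament gene, read 21.7, 6.89 and 3.49 and was well above background in control cells alone. It was at least 2.35-fold higher there than with siRNA #7 and at least 2.31-fold higher than with siRNA #8. The part of this in the keratin results was not tested. The *HOXA5* probe read 84.9, 52.6 and 58.5, log2 ratios of -0.36 (spot SD 0.25) and -0.23 (spot SD 0.26), within spot error. Whether this probe lies in the short RNA was not examined, so these ratios do not show how far it was silenced. The study reported, by qPCR, selective knockdown of the short RNA by either siRNA while *HOXA5* mRNA was unaffected.

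Joining both siRNA arrays as 1 silenced group against the lone control, with limma and Benjamini-Hochberg adjustment, called 0 of the 10 usable keratin probes and 1 of all 18121 probes. At an unadjusted p under 0.05 there were 2 keratin probes, both of *KRT23*, and 646 probes in all (3.56%). The silenced minus control difference of *KRT23* was 0.89 ± 0.32 (SE) on the brighter probe and 1.18 ± 0.34 (SE) on the other, each with an adjusted p of 0.9996 by limma. This fit has 1 residual degree of freedom, treats different siRNAs as replicates and assumes that the control varies like them.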

How the data were processed

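The authors hybridized Cy3-labeled RNA to Agilent SurePrint G3 arrays. Per the file headers, Agilent Feature Extraction 11.5.1.1 made the deposited intensity of each spot, after background subtraction and without scaling across arrays. A deposited value table holds log2 values of 21189 probes, and its differences between arrays follow those of the log2 intensities with a slope of 1.00 and a shift equal to the 75th percentile difference. Each probe is centred there, and 11 of the 12 keratin probes are listed. Samples were grouped by GEO's titles. The files number the siRNAs differently from the labels, and the labels were followed. Coordinates are left out because the array design and the gene table use different builds.

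Outlier-flagged spots were dropped from the intensities, spots of a probe averaged and log2 levels taken relative to the 75th percentile of each array (Python 3.11.15, numpy 2.4.6, pandas 2.3.3). A usable probe reached the 20th percentile on at least 2 arrays, a filter after the study's methods, and was well above background on all 3. Gene names were taken from a RefSeq table (GRCh38.p14) by unversioned transcript accession, which named 30004 of 50599 probes. The spot-to-spot SD was pooled within 6 ranges of signal. The share past 2-fold over usable probes, in place of genes, was 4.08% with siRNA #7 and 5.14% with siRNA #8. Ratios rest on 1 array per condition, and the number of arrays limits the precision. limma 3.58.1 (R 4.3.3) gave the only p-values. The ratio step and the limma fit were run on simulated arrays with spot-to-spot noise alone and the same change with both siRNAs. Those simulations hold no difference between cultures or siRNAs, so they cannot show how either step performs on these arrays. The genes named are the 8 keratins, list genes past 2-fold with either siRNA, the nearest genes, *HOXA5*, and markers by list. *KRT18P55*, *KRT19P2*, *KRT83*, *KRT13*, *KRT15*, *KRT10*, *KRT5*, *KRT14*, *KRT1*, *PLEC*, *DSP*, *PPL*, *EPPK1*, *EVPL*, *JUP*, *ITGA6*, *DST*, *CDX2* and *CNFN* were added after their values were seen. The members, lists and tests were chosen with earlier results of these data known. Alternatives changed the scaling, background correction, position, source of values, filter, probes of a gene, flags, fold threshold and test. Scaled median pixel signals were added after seeing the data. Normexp, with an offset of 50, used median signals, since no mean signal column is in the files. The result of 1 marker gene is not reported here, and the epithelial list was summed without it.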

Additional observations from a re-analysis of the deposited data

Results flagged for a closer look

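*KRT80* was picked out because siRNA #7 gave a log2 ratio of 0.97 and siRNA #8 one of -0.85 against the control, beyond spot error in opposite directions with 1 array each. With normexp and with scaled median pixel signals the ratio with siRNA #8 was within spot error. The difference between the siRNAs was not tested across replicates.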

How the results depend on the processing

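No paired analysis was possible because no condition was measured on more than 1 array. *KRT23* stayed above the control with both siRNAs under all 11 alternatives run. *KRT81* ranged from -1.67 to -0.97 with siRNA #8, and from -0.77 to -0.02 with siRNA #7, where removing neighbouring spots left no difference beyond spot error. *KRT80* kept its signs (0.34 to 0.98 with siRNA #7, -1.05 to -0.20 with siRNA #8). With siRNA #8 it was within spot error with normexp and with scaled median pixel signals, and with siRNA #7 with normexp. *KRT8* reversed with normexp on median signals, to -0.0897 with siRNA #7 and -0.152 with siRNA #8, and with scaled median pixel signals to -0.0574 with siRNA #8. The number of keratins past the fold threshold with siRNA #8, 1 as reported, was 2 with spike-in scaling, 0 with neighbouring spots removed, 2 with the mean of the passing probes and 3 at 1.5-fold. With siRNA #7, 0 as reported, it was 2 at 1.5-fold. Spike-in scaling shifted every ratio by -0.31 with siRNA #7 and -0.21 with siRNA #8. The medians of the lists lie near 0, and their signs are not settled. For all keratins with siRNA #7 the median was -0.054 with the median of each array, -0.021 with quantile normalization, -0.296 with spike-in scaling, -0.0897 with normexp, 0.210 with neighbouring spots removed, -0.0019 with the filter at 1 array and -0.0193 with the mean of the passing probes. With siRNA #8 it was -0.0555, -0.0059, -0.202, -0.140 and -0.156 with the median of each array, quantile normalization, spike-in scaling, normexp and neighbouring spots removed, and -0.0574 with median pixel signals. For the filament attachment genes with siRNA #7 it was -0.0444, -0.286 and -0.0463 with the median of each array, spike-in scaling and normexp, and -0.0314 with median pixel signals. With siRNA #8 it was 0.0045, 0.0494, -0.210, 0.0487 and 0.0672 with quantile normalization, the 75th percentile over detected probes, spike-in scaling, neighbouring spots removed and the mean of the passing probes. The causes were not tested. The dim probes of *KRT80* and of *KRT23* (its second) have the widest spot error.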
